A study of Mus musculus with 18 samples.

Results

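The stretch described here is the class I part of the mouse major histocompatibility complex (MHC), 2.3 Mb of chromosome 17 that runs from the H2-D and H2-Q genes through H2-T to H2-M. Its members are the regions of 4 deposited lists whose midpoint lies in chr17:35200000-37500000 of mm10 (GRCm38). There are 2560 such regions of 2377384 in all lists: the G9a list gave 663 of 621134, the H3K9me2 list 644 of 716658, the H3K27me3 list 704 of 504986 and the Mef2c list 549 of 534606. The lists come from chromatin immunoprecipitation and sequencing (ChIP-seq) of cardiomyocyte-enriched cells of C57BL/6J mice. KO mice were G9a flox/flox and alphaMHC-MerCreMer +/-, and Cre mice were alphaMHC-MerCreMer +/- with no floxed allele named. Both genotypes therefore carry the Cre transgene, and each has 2 libraries per target, described by the series as biological replicates. The sources used here do not give the age of the mice, any tamoxifen dose or any pooling of animals. MerCreMer is a Cre recombinase that works once tamoxifen is bound. The alphaMHC promoter, that of Myh6, drives it in heart muscle cells, so other cells of an enriched population keep G9a. G9a was pulled down with Sigma antibody G6919, Mef2c with Abcam ab43796, H3K27me3 with Millipore 07-449 and H3K9me2 with Abcam ab1220.

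Class I genes encode cell-surface proteins that are seen by T cells and natural killer cells. H2-D1 is a classical class I gene and presents peptides of the cell's own proteins to CD8+ T cells. The H2-Q, H2-T and H2-M genes are mostly nonclassical: H2-Q7 encodes the Qa-2 antigen, H2-T23 encodes Qa-1, a ligand of an inhibitory receptor of natural killer cells, and H2-T3 encodes the thymus leukaemia antigen. H2-M3 presents formylated bacterial peptides, and the H2-M10 genes are known from sensory neurons of the vomeronasal organ. G9a, encoded by Ehmt2, is the methyltransferase that makes H3K9me2, a methylated form of histone H3 at lysine 9. H3K27me3 is laid down by Polycomb repressive complex 2, and Mef2c is a transcription factor of muscle. Both histone marks are known from silent genes.

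The promoter windows of 4 class I genes were touched by listed regions of all 4 targets, and their sequences show the pieces of the stretch where the targets can be set side by side. Each window runs from 250 bases before to 50 bases after the start of the gene, from RefSeq on GRCm38.p6, printed 5' to 3' on the gene's own strand. Capitals mark matches to the CCAAT box, read as ATTGG where it lies on the other strand, or to the kappa B core (GGGANTCCC, which reads the same on both strands).
H2-Q2 (chr17:35342057-35342356, plus strand): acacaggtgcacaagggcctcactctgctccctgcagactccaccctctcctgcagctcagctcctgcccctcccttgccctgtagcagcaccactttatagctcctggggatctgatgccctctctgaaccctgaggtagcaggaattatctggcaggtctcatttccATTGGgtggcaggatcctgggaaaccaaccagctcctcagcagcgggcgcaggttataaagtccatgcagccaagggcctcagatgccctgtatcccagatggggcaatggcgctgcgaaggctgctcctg
H2-Q7 (chr17:35438905-35439204, plus strand): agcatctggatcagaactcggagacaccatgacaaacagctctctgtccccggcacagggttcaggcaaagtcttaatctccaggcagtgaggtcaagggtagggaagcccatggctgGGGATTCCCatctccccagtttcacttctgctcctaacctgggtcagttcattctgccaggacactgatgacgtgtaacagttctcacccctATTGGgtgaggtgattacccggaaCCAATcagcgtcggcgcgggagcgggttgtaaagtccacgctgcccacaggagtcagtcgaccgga
H2-T3 (chr17:36190102-36190401, minus strand): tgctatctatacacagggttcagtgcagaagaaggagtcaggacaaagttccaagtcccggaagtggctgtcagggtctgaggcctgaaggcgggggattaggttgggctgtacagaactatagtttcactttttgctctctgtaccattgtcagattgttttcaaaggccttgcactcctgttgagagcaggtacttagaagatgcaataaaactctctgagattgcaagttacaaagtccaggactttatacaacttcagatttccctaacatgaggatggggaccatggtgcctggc
H2-M10.5 (chr17:36772660-36772959, plus strand): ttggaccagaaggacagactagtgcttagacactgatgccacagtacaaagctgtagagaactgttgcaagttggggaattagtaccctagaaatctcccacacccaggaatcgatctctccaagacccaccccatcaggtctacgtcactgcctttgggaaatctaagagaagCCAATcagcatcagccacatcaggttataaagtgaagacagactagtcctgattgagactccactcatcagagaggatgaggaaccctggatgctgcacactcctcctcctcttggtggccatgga

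Over the H2-T3 window all listed regions were higher in KO, and over the H2-Q2 window all were lower in KO. The H2-Q7 window was touched by higher regions for H3K9me2, H3K27me3 and Mef2c and by a higher and a lower region for G9a. Over the H2-M10.5 window the targets parted: G9a and H3K27me3 were listed as lower, H3K9me2 and Mef2c as higher. In all, 23 windows of 22 H2 genes were on hand, and 21 of them were touched by a listed region of at least 1 target. The CCAAT box was in 20 of the 23 windows, against 37.4% of all 32851 RefSeq windows. The kappa B core was in 3 of them, those of H2-D1, H2-Q6 and H2-Q7, against 0.767% of all windows, with its first base 132 bases before the start of H2-Q7. The interferon-stimulated response element core (GAAANNGAA, TTCNNTTTC on the other strand) was in 2 of the 23 windows, those of H2-T23 and H2-T22. That is near the 8.56% of all windows that match this pattern. The pattern cannot match agtttcacttct, letters found in the windows of H2-D1, H2-Q4, H2-Q6, H2-Q7 and H2-Q10. These windows were counted as without a match, so the count does not show that their promoters lack the element. The MEF2 core (CTANNNNTAG, the same on both strands) was in 0 of the 23 windows, against 3.69% of all windows. A match says only that these letters are in the window, and a missing match only that this exact core is not. Variants of these cores were not searched. Some class I promoters are near copies of each other. Among the most alike pairs, 92.3% of aligned bases were identical between H2-M9 and H2-M1, 90.3% between H2-M10.3 and H2-M10.5, 85.9% between H2-T23 and H2-T-ps, and 82.6% between H2-D1 and H2-Q10. Most pairs were far less alike, such as H2-T23 and H2-T22 at 47.9% and H2-Q2 and H2-Q7 at 51.0%. Reads from near copies may be split or lost between genes, so the values of single class I genes are uncertain.

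The lists give 4 values per region, 2 for KO and 2 for Cre, on a scale that the sources used here do not name. The sequencing depth is unknown, and the input library of each genotype was not analysed here. Sums of the values over a whole list lay between 44305272 for a Mef2c library of KO and 114744154 for an H3K27me3 library of Cre. These are sums over chosen regions, not a depth. In a cell population, a change in every cell and a change in the share of cells cannot be told apart. Over Ehmt2, the gene targeted in KO, which ends 286.0 kb before the stretch, the summed G9a values were 315 and 426 in KO, against 690 and 602 in Cre, in 3 listed regions. The antibody signal over the gene does not measure the deletion. The lists hold no expression, so the labelled cell type was not checked.

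Every region was chosen by the authors because KO and Cre differed there, with a -log10 p of about 2 or more in their own comparison. Directions and sizes below are therefore descriptions, and the fit given further on restates the listing rather than testing it. Of the members, 445 were lower and 218 higher in KO for G9a, so that 67.1% were lower, against 61.5% of the whole list. For H3K9me2 the order was turned round: 261 were lower and 383 higher in KO, 40.5% lower against 39.7% of the list. For H3K27me3, 469 were lower and 235 higher, 66.6% lower against 63.3%, and for Mef2c 343 were lower and 206 higher, 62.5% lower against 61.7%. These shares are near those of the lists. So were those of the regions in which both KO values lay beyond both Cre values. Such regions numbered 435 for G9a (65.6%, against 61.5% of the list), 429 for H3K9me2 (66.6% against 65.7%), 497 for H3K27me3 (70.6% against 67.1%) and 378 for Mef2c (68.9% against 65.9%).

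Coverage by listed regions was not used in choosing the members by position. Listed H3K27me3 regions covered 42.8% of the stretch, against 37.5% of the 2.3 Mb just before it, 21.5% of chromosome 17 and 19.1% of the genome. G9a regions covered 24%, against 22.9% just before it, 20.8% of the chromosome and 18.2% of the genome. H3K9me2 regions covered 22.3%, against 18.3%, the same 22.3% and 20.6%, and Mef2c regions 18.1%, against 16.8%, 15.9% and 14.3%. The widest H3K27me3 member spanned 20.25 kb and lay over Gm8909, and 5 of the 11 H3K27me3 regions with a saturated p in the whole list were members. The median width was 0.95 kb for H3K27me3 members and 0.75 kb in that list. Just inside the low end, an H3K9me2 region (chr17:35200351-35200850) had 37 and 29 in KO, against 98 and 135 in Cre, and the nearest one outside (chr17:35199001-35199650) had 87 and 37 in KO, against 154 and 105 in Cre. At the high end, the H3K9me2 region just inside (chr17:37499151-37500450) had 264 and 318 in KO, against 120 and 127 in Cre, and the one just outside (chr17:37500901-37501500) had 107 and 93 in KO, against 29 and 66 in Cre.

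The spread between libraries was large. A fit with limma over each whole list, on log2 of the value plus a pseudocount of 1, was used to see which members stood out against it. Of the G9a members, 45 were lower and 8 higher in KO at an unadjusted p under 0.05, 6.79% and 1.21%, against 5.12% and 1.38% of the list. Of the H3K9me2 members, 19 were lower and 70 higher, 2.95% and 10.9%, against 2.89% and 8.19%. Of the H3K27me3 members, 142 were lower and 34 higher, 20.2% and 4.83%, against 12.3% and 3.0%. Of the Mef2c members, 62 were lower and 26 higher, 11.3% and 4.74%, against 8.62% and 2.66%. After Benjamini-Hochberg adjustment over all regions, limma called 0 members for G9a, H3K9me2 and Mef2c. For H3K27me3 it called 6 regions in the whole list (0.00119%), and 3 of them were members, all within the H2-T genes. Since the listing used the same contrast, these counts restate it, and nothing more is read from them. With the 4 libraries of a list scaled to the same median, 18 G9a members were lower and 32 higher, 2.71% and 4.83%, against 2.42% and 4.16% of the list. For H3K9me2, 46 were lower and 51 higher, 7.14% and 7.92%, against 7.02% and 4.06%. For H3K27me3, 72 of the 704 were lower and 72 higher, against 4.89% and 7.93% of the list. For Mef2c, 33 were lower and 60 higher, 6.01% and 10.9%, against 3.86% and 6.91%. The adjusted calls depended on single libraries: with the first KO value left out, 85 G9a members were called by limma, 12.8%, against 64315 regions or 10.4% of the list. Both H3K27me3 regions called in that fit (0.000396% of the list) were members. With any of the other values left out 0 regions of either list were called. The smallest exact two-sided permutation p for 2 values against 2 is 0.333.

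Summed over the stretch, KO was lower than Cre for G9a, H3K27me3 and Mef2c and higher for H3K9me2. The G9a sums were 87388 and 71371 in KO, against 103300 and 93874 in Cre, a log2 ratio of -0.31 (-0.29 over the whole list). The H3K9me2 sums were 88760 and 94712 in KO, against 66682 and 69562 in Cre, a log2 ratio of 0.43 (0.26 over the list). For both targets the genotypes did not overlap. The H3K27me3 sums were 254101 and 239925 in KO, against 299939 and 288431 in Cre, a log2 ratio of -0.25 (-0.31 over the list). The Mef2c sums were 54843 and 59599 in KO, against 66890 and 68832 in Cre, a log2 ratio of -0.25 (-0.32 over the list). The sign of these sums follows the lists as a whole: once the 4 libraries of a list were scaled to the same sum, the log2 ratio of the stretch stayed positive for H3K9me2 at 0.16, was -0.02 for G9a, and became 0.06 for H3K27me3 and 0.07 for Mef2c. On the log2 scale that scaling shifted the median region of the H3K9me2 list by -0.26, and those of the G9a, H3K27me3 and Mef2c lists by 0.29, 0.31 and 0.31. Block and group log2 ratios are therefore given as deposited, and scaled in this way beside it.

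**Figure D1:**
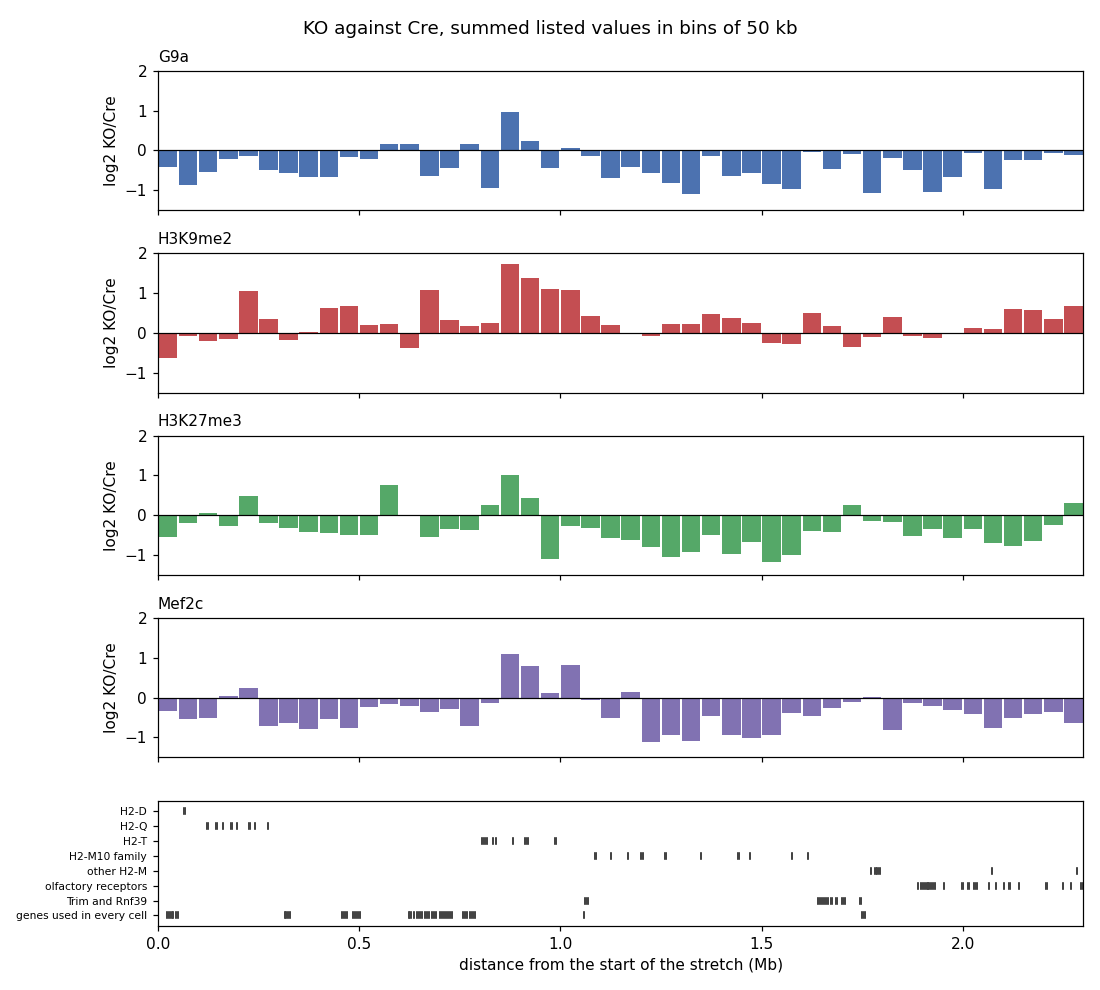
The log2 ratio of KO to Cre of the summed deposited values in bins of 50 kb, 1 panel per target, with the spans of the gene groups underneath; the x axis is the distance from the start of the stretch in Mb. The bins that start at 0.85 and 0.9 Mb are above 0 for all 4 targets, while 22 others are above 0 for H3K9me2 alone.

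Targets were compared in the 45 bins of 50 kb that held regions of all 4. In 22 bins (48.9%, against 40.8% of such bins in the genome) H3K9me2 alone was higher in KO. In 9 of the 45 bins, against 15.1% of such bins in the genome, all 4 targets were lower. In 2 bins (4.44% against 1.68%) all 4 targets were higher. These bins lie side by side, from chr17:36050001 to 36150000, over Gm6034, H2-Bl, H2-T-ps and H2-T10. They also take in Gm11127, Gm7030, Gm10499 and part of Gm8909. Most listed regions over each of these were lower in KO: 3 of 4, 3 of 5, 4 of 5 and 15 of 16 in that order. G9a, H3K27me3 and Mef2c shared a sign most often: 38 of 45 bins (84.4%) had the same sign for G9a and H3K27me3, 38 of 46 (82.6%) for G9a and Mef2c and 35 of 45 (77.8%) for H3K27me3 and Mef2c. Over the genome these shares were 71.9%, 70.4% and 71.5%. H3K9me2 shared its sign with G9a in 19 of 46 bins (41.3%), with H3K27me3 in 18 of 45 (40.0%) and with Mef2c in 17 of 46 (37.0%), against 38.4%, 35.8% and 36.7% of the genome's bins.

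Regions that overlap between lists by at least 1 base were compared in the same way. Overlapping G9a and H3K27me3 regions had the same direction in 356 of 543 pairs (65.6%, against 59.5% in the lists), and 279 of these were lower for both. G9a and Mef2c regions had the same direction in 211 of 320 pairs (65.9% against 60.6%), and G9a and H3K9me2 regions in 214 of 388 (55.2% against 53.4%). H3K27me3 and Mef2c regions had the same direction in 275 of 420 pairs (65.5% against 60.3%). For H3K9me2 and H3K27me3 it was 287 of 488 pairs (58.8% against 51.8%), with 126 higher for both. Of the 201 such pairs that parted, H3K9me2 was higher and H3K27me3 lower in 164 (81.6%), near the 114392 of 149586 (76.5%) in the lists. The overlaps took in 66.0% of the H3K9me2 members and 52.1% of the H3K27me3 members.

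The H2-T genes, from H2-T24 to the gap before Rpp21, held most of the higher regions with the largest -log10 p. H3K9me2 near the 5 H2-T genes of the annotation summed to 10579 and 12515 in KO, against 5071 and 5048 in Cre, and 28 of 38 regions were higher in KO (log2 ratio 1.19, scaled 0.92). Of these regions 26.3% were lower, against 39.7% of the list. Mef2c summed to 6082 and 5829 in KO, against 3879 and 3867 in Cre, with 26 of 35 regions higher (0.62, scaled 0.94), so that 25.7% were lower, against 61.7% of the list. H3K27me3 summed to 48770 and 44869 in KO, against 37995 and 34525 in Cre (0.37, scaled 0.68), but only 14 of 29 regions were higher, and wide regions were listed in both directions. G9a overlapped between genotypes, with 10312 and 6753 in KO and 9098 and 6763 in Cre. Within the group the neighbours differed by block. The blocks used here, runs of consecutive genes, were drawn after the values were seen.

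**Figure D2:**
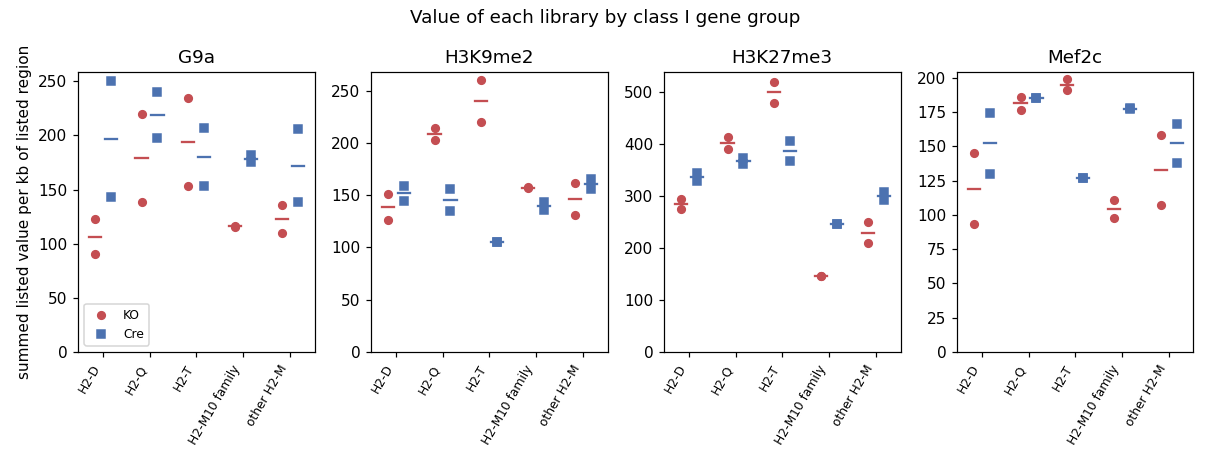
The summed deposited value of each library per kb of listed region near the genes of 5 class I groups, 1 panel per target; circles are KO libraries, squares are Cre libraries, and bars are the mean of 2. KO lies above Cre at H2-T for H3K9me2, H3K27me3 and Mef2c and below it at the H2-M10 family for G9a, H3K27me3 and Mef2c.

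At its proximal end, H2-T24, H2-T23 and H2-T22 (chr17:36003471-36042742) were lower in KO for G9a and Mef2c. For G9a, 9 of 10 regions were lower, and the sums were 628 and 474 in KO, against 1066 and 1065 in Cre (-0.95, scaled -0.67). For Mef2c they were 481 and 435 in KO, against 786 and 734 in Cre (-0.73, scaled -0.41). H3K9me2 and H3K27me3 overlapped between genotypes there. The regions were small: in the authors' deposited list the H3K27me3 region at the start of H2-T23 (chr17:36032151-36032950) had 20 and 77 in KO, against 160 and 152 in Cre, a log2 difference of -1.96 ± 0.80 (SE, n = 2 each).

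Just distal, between H2-T22 and the end of H2-T10 (chr17:36042743-36121444), the sums of all 4 targets were higher in KO. This block of 78.7 kb holds Gm6034 (also known as H2-gs14-2), Gm11127, the pseudogenes H2-Bl and H2-T10, and H2-T-ps. Not every gene of it followed the sums. Over the 4 targets, 6 of 10 regions over Gm6034 and 3 of 4 over Gm11127 were lower in KO. H3K9me2 summed to 11307 and 14449 in KO, against 3585 and 4439 in Cre, a 3.21-fold difference, and 29 of 30 regions were higher in KO. Mef2c summed to 7579 and 8087 in KO, against 3779 and 3888 in Cre, 2.04-fold, with 31 of 34 regions higher. H3K27me3 summed to 41682 and 37629 in KO, against 21319 and 19748 in Cre, 1.93-fold, with 14 of 20 regions higher. G9a summed to 12999 and 7761 in KO, against 6786 and 4663 in Cre, 1.81-fold, with 22 of 29 regions higher. KO and Cre sums did not overlap for any of the 4 targets, as deposited or scaled, and each scaled log2 ratio lay between 1.15 and 1.40. In these lists 38.5% of G9a, 60.3% of H3K9me2, 36.7% of H3K27me3 and 38.3% of Mef2c regions were listed as higher. G9a, whose gene is floxed in KO mice, was among the targets with higher values. The input libraries were not analysed here, and whether the copy number or sequence of this block differs between the genotypes was not tested.

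Single regions of this block show the 4 targets over the same bases. In the authors' deposited lists, H3K27me3 between Gm6034 and H2-Bl (chr17:36059851-36067950) had 8292 and 6407 in KO, against 3109 and 3013 in Cre, a log2 difference of 1.25 ± 0.15 (SE). G9a over nearly the same bases (chr17:36059701-36067150) had 3691 and 1681 in KO, against 1228 and 711 in Cre, 1.41 ± 0.81. H3K9me2 (chr17:36065301-36069750) had 1476 and 1746 in KO, against 298 and 553 in Cre, 1.98 ± 0.35. Both KO values exceeded both Cre values in all of these regions. Mef2c (chr17:36062951-36064500) had 506 and 493 in KO, against 46 and 208 in Cre, 2.34 ± 0.66. A second Mef2c region (chr17:36060051-36062200) had 602 and 801 in KO, against 328 and 318 in Cre, 1.1 ± 0.38, and an H3K9me2 region beside it (chr17:36059401-36062850) had 1175 and 1207 in KO, against 184 and 367 in Cre, 2.19 ± 0.39. The smallest standard errors were those of H3K27me3, whose values were the highest.

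Over H2-Bl, a transcribed pseudogene (chr17:36080110-36084249), a single H3K27me3 region of 15.5 kb (chr17:36076101-36091600) had 13431 and 11976 in KO, against 5614 and 5179 in Cre. Its log2 difference was 1.23 ± 0.11 (SE). Within it, Mef2c (chr17:36082001-36084750) had 640 and 762 in KO, against 313 and 301 in Cre, 1.18 ± 0.38. H3K9me2 (chr17:36082001-36086700) had 1104 and 1388 in KO, against 306 and 527 in Cre, 1.62 ± 0.35. All 7 listed regions over this pseudogene, of all 4 targets, were higher in KO. Toward it, H3K9me2 (chr17:36075951-36078900) had 1024 and 1076 in KO, against 274 and 167 in Cre, and G9a (chr17:36076051-36079050) had 1448 and 1007 in KO, against 497 and 461 in Cre. Past it, Mef2c (chr17:36089851-36091400) had 350 and 453 in KO, against 185 and 66 in Cre, 1.84 ± 0.57. H2-T-ps and H2-T10 share a second wide H3K27me3 region (chr17:36107601-36121350), with 11381 and 10384 in KO, against 6401 and 5630 in Cre, 0.86 ± 0.11. All 7 regions over H2-T-ps were higher in KO, as were 11 of 12 over H2-T10. The G9a and Mef2c libraries of H2-T10 disagreed with each other more: its Mef2c sums were 969 and 485 in KO and 343 and 843 in Cre, which overlap.

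**Figure D3:**
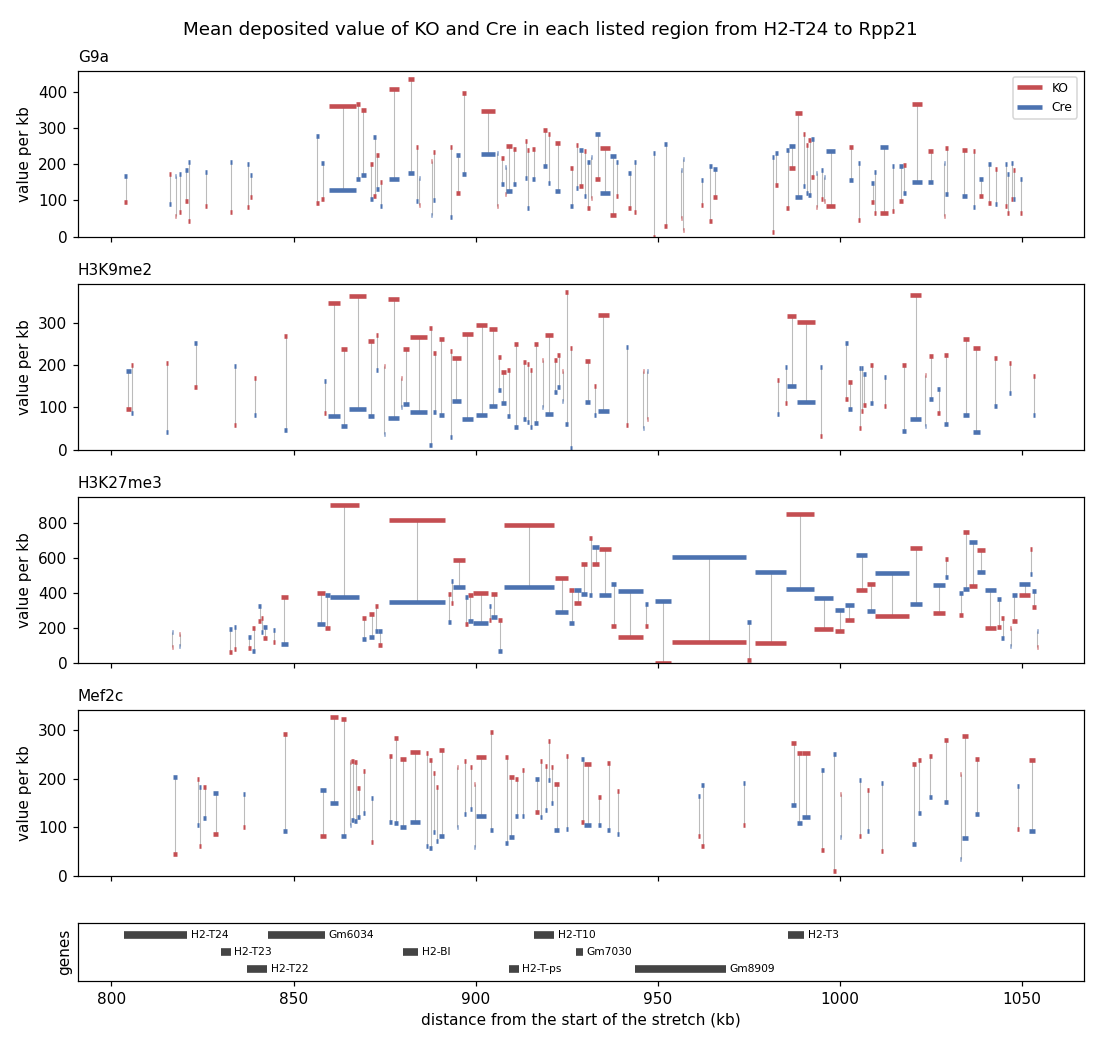
The mean deposited value per kb of every listed region from H2-T24 to Rpp21, 1 panel per target; each horizontal line spans a region, in red for KO and blue for Cre, a grey line joins the pair, and the x axis is the distance from the start of the stretch in kb with gene spans underneath. The wide H3K27me3 regions over H2-Bl, H2-T10 and H2-T3 are higher in KO, and those over Gm8909 and just before H2-T3 are lower.

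Beyond H2-T10 the targets parted. From there to the end of Gm8909 (chr17:36121445-36168602), a predicted gene also known as H2-gs17, H3K27me3 summed to 12600 and 10771 in KO, against 24676 and 21654 in Cre (-0.99, scaled -0.68). G9a was lower too, with 2813 and 1993 in KO, against 3426 and 3086 in Cre (-0.44), though after scaling the genotypes overlapped. H3K9me2 was higher, with 2056 and 2663 in KO, against 920 and 1205 in Cre (1.15, scaled 0.87), and so was Mef2c, with 1526 and 1460 in KO, against 1024 and 1159 in Cre (0.45, scaled 0.77). The H3K27me3 difference lay over Gm8909, where all 4 regions were lower. In the authors' deposited list the widest (chr17:36153801-36174050) had 2567 and 2342 in KO, against 13660 and 10919 in Cre, a log2 difference of -2.32 ± 0.14 (SE). The one before it (chr17:36149151-36153600) was nearly empty in KO, with 10 and 0, against 1523 and 1622 in Cre. Another (chr17:36139051-36145850), which also covers Gm10499, had 1059 and 934 in KO, against 2655 and 2907 in Cre, -1.48 ± 0.20. All 8 G9a regions over Gm8909 were lower in KO, and at chr17:36148651-36149150 both KO values were listed at 0, against 103 and 129 in Cre. Over the gene itself both Mef2c regions were also lower, and the higher H3K9me2 and Mef2c regions of the block lay mostly between H2-T10 and Gm8909.

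The direction switched again within a few bases. Directly before H2-T3, an H3K27me3 region (chr17:36176651-36185150) had 935 and 979 in KO, against 4831 and 4011 in Cre, a log2 difference of -2.20 ± 0.19 (SE). The adjoining region over H2-T3 itself (chr17:36185151-36192950) had 6832 and 6455 in KO, against 3035 and 3569 in Cre, 1.01 ± 0.14. Over H2-T3, H3K9me2 summed to 2253 and 2456 in KO, against 924 and 1018 in Cre, and Mef2c to 1301 and 1289 in KO, against 633 and 617 in Cre. All listed H3K9me2 and Mef2c regions over this gene were higher, while G9a had 2 regions higher and 2 lower. A higher one, inside the gene (chr17:36187601-36189400), had 803 and 422 in KO, against 198 and 195 in Cre. Past H2-T3, up to Rpp21, H3K9me2 (5220 and 5087 in KO, against 2352 and 2362 in Cre) and Mef2c (2988 and 3179 in KO, against 1862 and 2080 in Cre) stayed higher. H3K27me3 was lower there as deposited, with 18825 and 16894 in KO, against 23662 and 20655 in Cre (-0.31), and the scaled ratio was 0.002. The strongest H3K9me2 region of that gap (chr17:36219301-36222250), 30.6 kb from H2-T3, had 1127 and 1026 in KO, against 204 and 217 in Cre, 2.35 ± 0.34. G9a over it (chr17:36219851-36222450) had 1123 and 777 in KO, against 547 and 236 in Cre, and Mef2c farther on (chr17:36233401-36235050) had 388 and 564 in KO, against 96 and 163 in Cre. Lower regions lay between H2-T3 and that strongest H3K9me2 region. G9a at chr17:36211051-36213200 had 156 and 123 in KO, against 536 and 528 in Cre, and Mef2c at chr17:36197951-36198800 had 16 and 0 in KO, against 169 and 256 in Cre.

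The 5 higher regions with the largest -log10 p of each target, 20 in all, were gathered in this part of the stretch. Of these, 17 lay between H2-T22 and Rpp21, a span of 212.9 kb or 9.26% of the stretch, and 12 lay between H2-T22 and the end of H2-T10. The other 3 were 2 regions at H2-Q7 and a G9a region near Olfr108. Of the 20 lower regions chosen in the same way, 6 lay between H2-T22 and Rpp21.

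**Figure D4:**
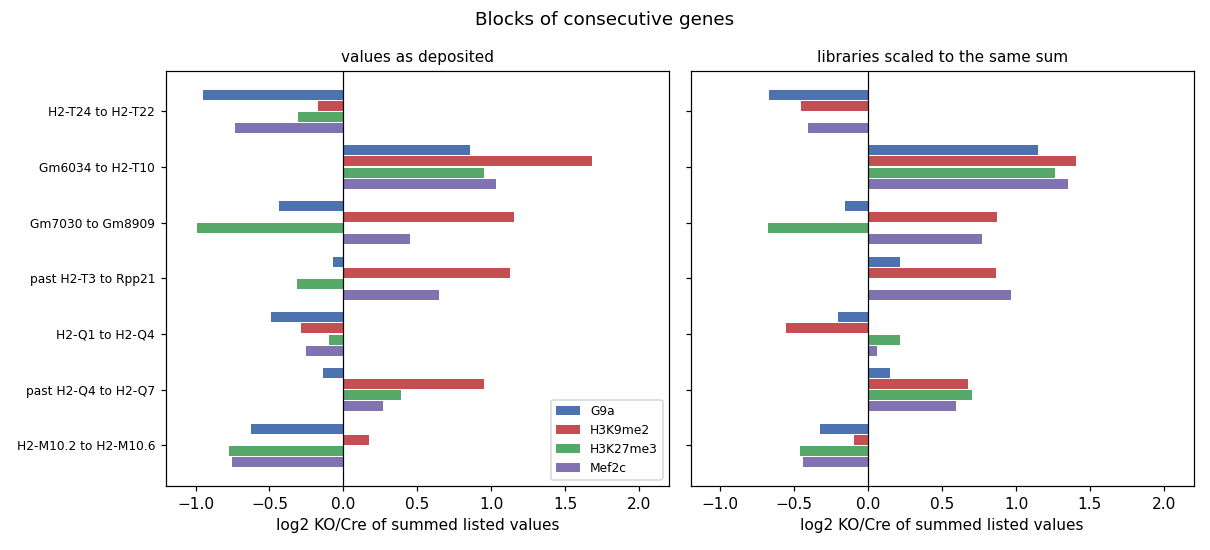
The log2 ratio of KO to Cre of the summed deposited values in 7 blocks of consecutive genes, as deposited on the left and with the libraries of each list scaled to the same sum on the right; bars are the 4 targets. The block from Gm6034 to H2-T10 is above 0 for all 4 targets in both panels.

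Directions also switched along the H2-Q genes. From H2-Q1 to H2-Q4 (chr17:35320525-35384674) all 4 sums were lower in KO as deposited, though scaling turned H3K27me3 (-0.10, scaled 0.22) and Mef2c (-0.25, scaled 0.06) and made G9a overlap. G9a summed to 3133 and 2198 in KO, against 4040 and 3439 in Cre (-0.49, scaled -0.20), and H3K9me2 to 1857 and 2119 in KO, against 2505 and 2354 in Cre (-0.29, scaled -0.56). Over H2-Q1, 5 of 6 G9a regions were lower, with 521 and 307 in KO, against 1208 and 948 in Cre. From there to the end of H2-Q7 (chr17:35384675-35443773), H3K9me2 was higher, with 5373 and 5396 in KO, against 2459 and 3114 in Cre (0.95, scaled 0.68). H3K27me3 was higher as well, with 20286 and 17793 in KO, against 14571 and 14528 in Cre (0.39, scaled 0.70). Mef2c was higher with a smaller difference, 5572 and 4733 in KO, against 4344 and 4232 in Cre (0.27, scaled 0.59), and G9a overlapped, with 6979 and 3933 in KO and 6609 and 5372 in Cre.

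Within this block H2-Q7 differed most. In the authors' deposited list H3K27me3 over its body (chr17:35440301-35446150) had 4101 and 3651 in KO, against 2387 and 1894 in Cre, a log2 difference of 0.86 ± 0.18 (SE). H3K9me2 over the gene (chr17:35439701-35441900) had 649 and 603 in KO, against 211 and 297 in Cre, 1.32 ± 0.38, and 2.6 kb before it (chr17:35435401-35437650) it had 643 and 944 in KO, against 63 and 199 in Cre, 2.79 ± 0.57. All 3 H3K9me2 and all 3 Mef2c regions over H2-Q7 were higher in KO. H2-Q6, its neighbour, went the same way for H3K9me2 (569 and 467 in KO, against 334 and 237 in Cre) and for H3K27me3 (6824 and 6225 in KO, against 5051 and 4836 in Cre). The promoter windows of H2-Q6 and H2-Q7 were identical at 75.0% of aligned bases. H2-Q10, which in mice is secreted by the liver, was lower for G9a (222 and 127 in KO, against 388 and 467 in Cre) and Mef2c (8 and 99 in KO, against 162 and 151 in Cre) and overlapped for H3K27me3. H2-Q3 and H2-Q5, both pseudogenes, had listed regions of 1 direction only, all lower in KO. H2-Q2 and H2-Q4 held regions of both directions: H2-Q2 had 6 lower and 4 higher regions over the 4 targets, and H2-Q4 had 4 lower and 3 higher.

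H2-D1, the classical gene of the stretch, had few listed regions over it and none for H3K9me2. Near it, G9a summed to 1159 and 855 in KO, against 2369 and 1355 in Cre (-0.89, scaled -0.59), with 9 of 11 regions lower. H3K27me3 near it was lower as deposited, with 7572 and 7060 in KO, against 8828 and 8437 in Cre (-0.24), and turned to 0.07 after scaling. H3K9me2 and Mef2c overlapped between genotypes. Over the gene itself, the sums of each target with a listed region overlapped. Its only G9a region was listed as higher, with 46 and 120 in KO, against 36 and 52 in Cre. Counting regions that touch the gene with 2 kb either side gave log2 ratios of -0.335 for G9a, -0.301 for H3K27me3 and 0.351 for Mef2c.

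The H2-M10 family, here H2-M10.1 to H2-M10.6 with H2-M1, H2-M9 and H2-M11, was the class I group with the most regions, and 3 of the 4 targets were mostly lower there. H3K27me3 near its 9 genes summed to 41155 and 40754 in KO, against 69200 and 68966 in Cre (-0.75, scaled -0.44), with 168 of 225 regions lower. Mef2c summed to 9950 and 11273 in KO, against 17995 and 18096 in Cre (-0.77, scaled -0.45), with 110 of 142 regions lower. G9a summed to 13353 and 13304 in KO, against 20921 and 20113 in Cre (-0.62, scaled -0.33), with 106 of 143 regions lower. Against the 63.3%, 61.7% and 61.5% of these lists, 74.7%, 77.5% and 74.1% of the regions were lower. H3K9me2 parted from them as deposited: 114 of 198 regions were higher, with 24311 and 24575 in KO, against 21130 and 22247 in Cre (0.17). This turned to -0.10 after scaling. Of these regions 42.4% were lower, against 39.7% of the list, so the higher direction is that of the whole H3K9me2 list. Libraries of a genotype lay close together in this group.

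Single genes of the family did not all follow it. H2-M11 was lower for G9a (320 and 154 in KO, against 641 and 444 in Cre) and Mef2c (240 and 280 in KO, against 495 and 452 in Cre), while its H3K9me2 sums overlapped. H2-M1 was lower for G9a (70 and 53 in KO, against 126 and 202 in Cre) and H3K27me3 (299 and 466 in KO, against 798 and 723 in Cre). H3K9me2 was lower at H2-M10.4 and H2-M10.1. H2-M10.4 had 69 and 69 in KO, against 256 and 231 in Cre, and H2-M10.1 had 64 and 47 in KO, against 117 and 233 in Cre. H2-M10.5 and H2-M10.3 went the other way for some targets. For H2-M10.5, H3K9me2 was higher (404 and 324 in KO, against 243 and 158 in Cre), as was Mef2c (57 and 53 in KO, against 26 and 25 in Cre), while G9a was lower (189 and 73 in KO, against 324 and 427 in Cre). For H2-M10.3, G9a was higher, with 361 and 263 in KO, against 187 and 205 in Cre. H2-M10.2, H2-M9 and H2-M10.6 had 3 to 7 listed regions each, shown in the plot of H2 genes.

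**Figure D5:**
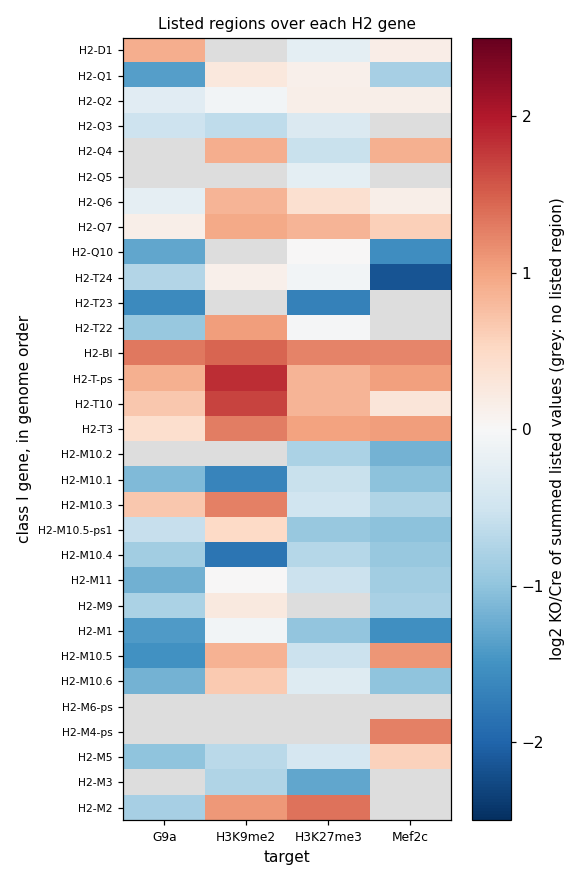
The log2 ratio of KO to Cre of the summed deposited values of the regions that touch each H2 gene, with genes in genome order from top to bottom and targets from left to right; red is higher in KO, blue lower, and grey marks a gene with no listed region. H2-Bl, H2-T-ps, H2-T10 and H2-T3 are red for all 4 targets, and no other H2 gene but H2-Q7 is.

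Between H2-M1 and H2-M10.5 lay a run of regions at or near 0 in KO. From chr17:36740001 to 36770000, before the start of H2-M10.5, 24 of 25 listed regions of the 4 targets were lower in KO. The bounds of this interval were drawn around the regions seen at 0, so this count follows from the choice. In the whole lists 61.5% of G9a, 39.7% of H3K9me2, 63.3% of H3K27me3 and 61.7% of Mef2c regions were lower. H3K27me3 summed to 819 and 1195 in KO, against 4536 and 4835 in Cre (-2.22, scaled -1.91), with 11 of 11 regions lower, and H3K9me2 to 69 and 41 in KO, against 546 and 634 in Cre (-3.42, scaled -3.68), with 4 of 4 lower. In the authors' deposited list 3 neighbouring H3K27me3 regions were listed at 0 in both KO libraries. They had 684 and 724 in Cre (chr17:36751251-36753700), 365 and 235 in Cre (chr17:36753951-36755000) and 522 and 686 in Cre (chr17:36755051-36757250). Over the same bases, G9a (chr17:36755801-36756500) was listed at 0 and 0 in KO, against 185 and 138 in Cre, and H3K9me2 (chr17:36755251-36755700) at 0 and 0 in KO, against 149 and 93 in Cre. Farther on, H3K27me3 (chr17:36761551-36761900) was again at 0 and 0 in KO, against 121 and 45 in Cre, and H3K9me2 (chr17:36762901-36763250) at 0 and 0 in KO, against 124 and 53 in Cre. On the near side, H3K9me2 (chr17:36748201-36749100) had 43 and 7 in KO, against 210 and 347 in Cre, and Mef2c (chr17:36730551-36731300) had 18 and 2 in KO, against 162 and 179 in Cre. Of the members, 4 G9a, 2 H3K9me2, 4 H3K27me3 and 1 Mef2c region were at 0 in both KO libraries, of 578, 56, 131 and 384 such regions in the lists. No member was at 0 in both Cre libraries, and the whole lists held only 49, 414, 46 and 68 such regions, with targets in the same order. They are too rare in the lists for their absence from the stretch to be informative. Whether reads of the KO libraries can be placed in this interval was not tested.

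The other H2-M genes had few regions. H2-M3 was lower for H3K27me3 (49 and 47 in KO, against 107 and 130 in Cre) and for H3K9me2 (58 and 113 in KO, against 119 and 169 in Cre), the nearest values of which lie close together. H2-M2 was higher for H3K9me2 (334 and 239 in KO, against 201 and 68 in Cre) and H3K27me3 (126 and 154 in KO, against 90 and 20 in Cre). Over H2-M5 all 3 G9a regions were lower, with 372 and 120 in KO, against 400 and 593 in Cre. Its Mef2c sums were higher, with 401 and 616 in KO, against 342 and 342 in Cre. The pseudogene H2-M4-ps had a single listed region, of Mef2c, with 68 and 93 in KO, against 36 and 31 in Cre, and H2-M6-ps had none. As a group, G9a near these genes was lower as deposited, with 1056 and 858 in KO, against 1078 and 1604 in Cre (-0.49), and overlapped after scaling (-0.21). H3K27me3 did the same, with 3164 and 2646 in KO, against 3706 and 3899 in Cre (-0.39, scaled -0.08). H3K9me2 and Mef2c overlapped as deposited.

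Near 24 genes grouped here as used in every cell, such as Tubb5, a beta tubulin, and Flot1, flotillin 1, H3K9me2 had a log2 ratio of 0.34, and G9a, H3K27me3 and Mef2c were at -0.19, -0.32 and -0.17. Scaling turned G9a (0.10) and Mef2c (0.16) and made the genotypes overlap for H3K9me2 (0.07), H3K27me3 (-0.002) and Mef2c. Tubb5 was an exception for G9a, with 119 and 269 in KO, against 42 and 50 in Cre, and both of its G9a regions were higher. Flot1 had listed regions for Mef2c only, with 290 and 247 in KO and 486 and 289 in Cre, which overlap, and Ier3, a gene of the early stress response, had 1 Mef2c region, with 70 and 181 in KO and 78 and 87 in Cre. Near the cytokine genes Tnf and Lta all 4 targets were lower as deposited, and after scaling G9a (-0.54, scaled -0.28) and Mef2c (-0.83, scaled -0.55) overlapped between genotypes. Over Tnf, H3K27me3 had 1808 and 1268 in KO, against 2627 and 2093 in Cre, Mef2c had 60 and 91 in KO, against 249 and 226 in Cre, and H3K9me2 had 37 and 29 in KO, against 98 and 135 in Cre. In this small group H3K9me2 (log2 ratio -1.19, scaled -1.47, 3 regions) and H3K27me3 (-0.53, scaled -0.22) were lower both ways.

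Near 4 epithelial genes, among them Cdsn, the gene of corneodesmosin of the outer skin, G9a (3580 and 2164 in KO, against 4889 and 4547 in Cre) and H3K27me3 (6405 and 6253 in KO, against 8736 and 8302 in Cre) were lower. H3K9me2 and Mef2c overlapped there. The strongest lower regions of the group were a G9a region over Psors1c2 (chr17:35532701-35534700), with 159 and 70 in KO, against 446 and 500 in Cre, -2.15 ± 0.60 (SE), and a Mef2c region 4.8 kb from Cdsn (chr17:35561001-35563000), with 40 and 217 in KO, against 461 and 377 in Cre. Pou5f1, the gene of the pluripotency factor Oct4, had 1 H3K9me2 region, with 18 and 14 in KO, against 95 and 83 in Cre. Its H3K27me3 sums overlapped, with 1754 and 2031 in KO and 1710 and 1913 in Cre. Ddr1, a collagen receptor, was counted above with the genes grouped as used in every cell. It had 6 H3K9me2 regions, all higher in KO (575 and 866, against 370 and 328 in Cre), while 4 of its 5 Mef2c regions were lower.

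Near 17 olfactory receptor genes, which encode odorant receptors of the nose, 78 of 110 G9a, 81 of 114 H3K27me3 and 56 of 84 Mef2c regions were lower, and 88 of 140 H3K9me2 regions were higher. The lower shares were 70.9%, 71.1% and 66.7%, against 61.5%, 63.3% and 61.7% of these lists, and 37.1% of H3K9me2 regions were lower, against 39.7%. The H3K27me3 sums were 24325 and 23193 in KO, against 33994 and 33045 in Cre (-0.50, scaled -0.19), and the H3K9me2 sums 19917 and 18979 in KO, against 15673 and 15434 in Cre (0.32, scaled 0.06). As in the H2-M10 family, H3K9me2 was the target with higher sums as deposited, and its genotypes overlapped after scaling, as did those of G9a and Mef2c. Over Olfr91, Mef2c (chr17:37099101-37100300) had 26 and 33 in KO, against 288 and 303 in Cre, -3.29 ± 0.64 (SE). Near Olfr97, H3K9me2 (chr17:37242201-37242900) had 1 and 2 in KO, against 92 and 249 in Cre, and near Olfr90 (chr17:37088351-37089100) it had 18 and 7 in KO, against 205 and 104 in Cre. The reverse was seen near Olfr108, where G9a (chr17:37448401-37449500) had 220 and 545 in KO, against 59 and 114 in Cre, 2.06 ± 0.68.

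The Trim genes with Rnf39, which encode ring-finger ubiquitin ligases, differed little. G9a summed to 3826 and 3750 in KO, against 4789 and 3976 in Cre, and H3K27me3 to 12278 and 11070 in KO, against 14098 and 12676 in Cre. Scaling turned both of these differences (0.09 and 0.12), with overlapping genotypes. H3K9me2 and Mef2c overlapped. Trim39 held regions of both directions for G9a, H3K9me2 and Mef2c and none for H3K27me3. Among other named genes, Mog, the myelin oligodendrocyte glycoprotein, was lower for H3K9me2 (368 and 361 in KO, against 509 and 492 in Cre), Mef2c (201 and 240 in KO, against 500 and 564 in Cre) and H3K27me3 (1134 and 749 in KO, against 1382 and 1603 in Cre). G9a over Mog was lower too, with 740 and 631 in KO, against 756 and 894 in Cre, and turned to 0.02 after scaling. Zfp57, a zinc finger protein that maintains imprints, was lower for H3K27me3 (1369 and 1416 in KO, against 1963 and 2241 in Cre) and Mef2c (109 and 171 in KO, against 394 and 466 in Cre), and overlapped for G9a and H3K9me2. Gabbr1, a subunit of the GABA-B receptor, held 42 listed regions, 22 lower and 20 higher. Its strongest was a lower G9a region (chr17:37045501-37046550), with 26 and 15 in KO, against 238 and 252 in Cre, -3.56 ± 0.79 (SE). H3K27me3 over the same bases (chr17:37045251-37046800) was higher, with 809 and 772 in KO, against 615 and 439 in Cre. Other strong lower regions were G9a near Znrd1 (chr17:36953151-36954000), with 11 and 9 in KO, against 186 and 208 in Cre, H3K9me2 near Nfkbil1 (chr17:35217201-35218400), with 20 and 78 in KO, against 338 and 205 in Cre, and Mef2c 8.3 kb from H2-M1 (chr17:36680051-36680950), with 25 and 27 in KO, against 110 and 280 in Cre.

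The places where 2 targets parted most, over bins of 50 kb, were few. The log2 ratios of bins are as deposited, so gaps with H3K9me2 include the gap between whole lists. That was -0.56 for G9a minus H3K9me2, 0.57 for H3K9me2 minus H3K27me3 and 0.58 for H3K9me2 minus Mef2c. The bin over Gm8909 and H2-T3 (chr17:36150001-36200000) had the widest gap for H3K9me2 and H3K27me3, with log2 ratios of 1.11 and -1.09, and for H3K27me3 and Mef2c, with -1.09 and 0.13. These gaps came mostly from different bases. The H3K9me2 regions of this bin lay at and beside H2-T3, and none lay over Gm8909, where H3K27me3 was lower. Over H2-T3 itself H3K27me3 was higher in KO (mean of 851.7 per kb, against 423.3 in Cre), as were H3K9me2 and Mef2c. A bin over Mdc1, Nrm and Atat1 (chr17:35850001-35900000) had the widest gap for G9a and H3K9me2, with -0.64 and 1.07. Mdc1 is a DNA damage checkpoint protein and Atat1 acetylates alpha tubulin. H3K9me2 and Mef2c parted most over Vars2 and Ddr1 (chr17:35650001-35700000), with 0.68 and -0.77. G9a and H3K27me3 parted most in the bin that runs from H2-T24 past H2-T22 to Gm6034 (chr17:36000001-36050000), with -0.95 and 0.26. In the block from H2-T24 to H2-T22 alone, H3K27me3 was at -0.305 (scaled 0.007) with overlapping genotypes. Past H2-T22, an H3K27me3 region of this bin had a mean of 376.9 per kb in KO, against 107.8 in Cre. G9a and Mef2c parted most over Ppp1r11, Znrd1 and H2-M5 (chr17:36950001-37000000), with -1.08 and 0.02.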

How the data were processed

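The data are ChIP-seq of 16 libraries, 2 per genotype and target, with NuGEN Ovation Ultralow System V2 libraries per the labels' protocols. BWA 0.7.10-r789, SAMtools 1.1 and mm10 are named in the submitters' processing notes. The 2 input libraries were not analysed here. The deposited lists of the authors give, for each region where the genotypes differ, 4 values, a direction and a -log10 p-value. Per the file headers no scale is recorded, so the values were taken as a signal of unknown normalization. The caller of the regions: not given in the sources used here.

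Regions were assigned to the stretch by midpoint and to the nearest protein-coding gene span of RefSeq (GRCm38.p6), so regions over pseudogenes go to a neighbour in group sums. Gene values sum the regions that touch a gene. Sums were compared as log2 ratios. Per-region log2 differences and standard errors come from limma 3.58.1 (R 4.3.3) with a trend, on log2(value + 1), fitted to each whole list with Benjamini-Hochberg adjustment, and the fit was tested on simulated data. Bins were 50 kb. bedtools 2.31.1 paired overlapping regions, and Biopython 1.88 aligned the promoter windows. Figures and sums used Python 3.11.15, pandas 2.3.3 and matplotlib 3.10.9. The labels call the 2 libraries biological replicates, but the values carry no replicate number.

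The genes named are those nearest to the 5 higher and 5 lower regions with the largest -log10 p of each target, all H2 genes, and 8 others: Pou5f1, Tubb5, Flot1, Ier3, Mog, Zfp57, Gabbr1 and Trim39. Also named are the 3 bins with the widest gap for each pair of targets, of which the widest is given. Tnf, Ddr1, Gm8909, Gm10499, Gm11127, Gm7030 and the regions next to those listed at 0 were added after their values were seen. Members and gene lists were chosen with earlier results of these data known. Alternatives were other scalings, pseudocounts, filters, bins, overlaps and leaving out each value.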

Additional observations from a re-analysis of the deposited data

Results flagged for a closer look

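The values below are differences between targets of their log2 ratios of KO to Cre, given where both KO sums lay above both Cre sums for a target and below them for the other. The differences between targets were not tested, and each target was measured with its own antibody and libraries. Over the whole lists G9a minus H3K9me2 was -0.56, H3K9me2 minus H3K27me3 0.57, H3K9me2 minus Mef2c 0.58 and H3K27me3 minus Mef2c 0.01.

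Near the H2-M10 family, G9a minus H3K9me2 was -0.79, H3K9me2 minus H3K27me3 was 0.93 and H3K9me2 minus Mef2c was 0.94. Near the olfactory receptor genes these were -0.74, 0.82 and 0.77. Near the genes used in every cell they were -0.53, 0.65 and 0.51, and near the other named genes, among them Mog, Zfp57 and Gabbr1, they were -0.51, 0.39 and 0.68. Near the predicted genes, among them Gm8909, H3K9me2 minus H3K27me3 was 1.68 and H3K27me3 minus Mef2c was -0.68. After scaling to the same sum, 1 of these 14 pairs still had its targets apart in opposite directions. That was H3K9me2 and H3K27me3 near the other named genes, at -0.12 and 0.06, with both signs turned. The genotypes overlapped for H3K9me2 near the H2-M10 family (-0.095), the olfactory receptor genes (0.059) and the genes used in every cell (0.069), and for H3K27me3 near the predicted genes (-0.057).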

How the results depend on the processing

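No paired analysis was possible because the 4 values of a region carry no replicate number. Across the results that answer a comparison, 90 alternative values were close to those given above, 47 moved and 5 turned sign. With a -log10 p of at least 10, 27% of H3K9me2 regions were lower in KO, with 75.3% of G9a, 77.8% of H3K27me3 and 69.2% of Mef2c regions, and the H3K9me2 sums had a log2 ratio of 0.98, those of H3K27me3 -0.32 and those of Mef2c -0.36. With a mean value of at least the list's median, these were 36.3% and 0.54 for H3K9me2. Scaling all libraries to 1 median put the log2 ratio of the sums at 0.005 (G9a), 0.13 (H3K9me2), 0.033 (H3K27me3) and 0.081 (Mef2c), and the median log2 ratio of the regions was -0.58, 0.42, -0.35 and -0.57 in that order of targets. Scaling them to 1 sum put it at -0.022 (G9a), 0.161 (H3K9me2), 0.06 (H3K27me3) and 0.072 (Mef2c). With a pseudocount of 5 the Mef2c median was -0.83. The cause of these moves was not tested. Bins of 100 kb gave G9a and Mef2c the same direction in 91.3%, and an overlap of 50% of the shorter region gave 63.1% for H3K9me2 and H3K27me3 and 71.3% for H3K27me3 and Mef2c. Leaving out each value in turn gave a median log2 ratio from -0.96 to -0.41 (G9a), 0.36 to 0.64 (H3K9me2), -0.59 to -0.47 (H3K27me3) and -0.83 to -0.51 (Mef2c), against -0.90, 0.71, -0.63 and -0.89 with all values, so the last 3 lie outside their ranges. The largest moves were G9a without the second KO value (-0.41), H3K9me2 without the first (0.36) or second (0.42) Cre value and Mef2c without the first (-0.51) or second (-0.57) KO value. It gave 14 to 229 G9a regions, 38 to 161 H3K9me2 regions, 92 to 208 H3K27me3 regions and 34 to 143 Mef2c regions past limma's unadjusted threshold, with the lone value of a genotype assumed to vary like the others.

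Of the gene groups and blocks whose KO and Cre sums lay apart, 13 of 212 alternative values turned sign, 12 of them with libraries scaled to the same sum, an alternative that, like leaving values out of the blocks, was chosen after seeing the data. Scaled, the Trim genes with Rnf39 were at 0.09 for G9a and 0.12 for H3K27me3, the genes used in every cell at 0.10 for G9a and 0.16 for Mef2c, and the H2-M10 family and its block both at -0.10 for H3K9me2. The other named genes were at -0.12 for H3K9me2 and 0.064 for H3K27me3, H2-D at 0.073 for H3K27me3, the block past H2-T3 at 0.002 for H3K27me3, and the block from H2-Q1 to H2-Q4 at 0.22 for H3K27me3 and 0.062 for Mef2c. Counting regions that touch the predicted genes with 2 kb either side gave -0.047 for Mef2c. Where the sums overlapped as deposited, 20 of 42 turned sign, 9 of them scaled, among them the H2-Q genes (0.29) and the Trim genes (0.24) for Mef2c. Depth is not known for any library, and values near 0 limit single small regions most.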
